A study of Mus musculus with 14 samples.

Results

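The genes described here handle cholesterol and stored lipid in CD11b+ microglia/macrophages. They are 36 listed genes of cholesterol and fatty acid synthesis, of cholesterol efflux, and of lysosomal release and storage of lipid. Each of the 36 matched a single row among the 33939 genes measured, by symbol through the mouse annotation. They fall into 6 role groups, namely 4 genes of SREBP control, 7 enzymes from acetyl-CoA to farnesyl diphosphate, 11 enzymes from squalene to cholesterol, 4 enzymes of fatty acid synthesis, 5 genes of LXR and efflux, and 5 of lysosomal release and storage. The cells were taken with CD11b magnetic beads 3 days after a controlled cortical impact, which is an open-skull traumatic brain injury (TBI), from the injured (IL) and the opposite (CL) hemisphere. The control mice (Ctrl, 4 libraries in CL and 4 in IL) were Cx3cr1-CreER+/-, and the Nhe1 cKO mice (cKO, 3 libraries in CL and 3 in IL) were Cx3cr1-CreER+/-;Nhe1flox/flox. All mice were C57BL/6 males of 8 to 12 weeks, and all were given tamoxifen and carried the Cre allele. The Cre follows the Cx3cr1 promoter, which is active in microglia and also in monocytes, and no uninjured mice are analysed here. The libraries come from 8 mice, of which 6 gave both hemispheres. The comparisons asked which of these genes differ between the injured and the opposite hemisphere, and whether they differ between cKO and Ctrl.

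Cells make cholesterol from acetyl-CoA in a long series of enzymes, and the transcription factor SREBP2 (Srebf2) turns those enzymes on when membrane sterol is low. INSIG proteins hold SREBP back when sterol is plentiful. Microglia and macrophages that clear dying cells and myelin receive cholesterol esters, which acid lipase (Lipa) splits in the lysosome and NPC2 and NPC1 pass out of it. Cholesterol is then re-esterified by SOAT1 and kept in droplets coated by PLIN2, or it leaves the cell through ABCA1 and ABCG1, whose genes the oxysterol receptors LXR (Nr1h3 and Nr1h2) turn on.

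The promoters were searched for the sterol response element core and for a GGTCA repeat. RefSeq promoters of 29 of the 36 genes (build GRCm38.p6, 250 bases before to 50 after the start) were available, and those of Fdps, Fdft1, Sqle, Scd1, Scd2, Abcg1 and Npc1 were not used. The sterol response element core TCACNCCA, read on both strands, stood in 3 of these 29 genes (Hmgcs1, Msmo1 and Srebf2), while 4.97% of 27025 genes with promoters in the same table hold it. GGTCA repeated in the same direction with 4 bases between stood in 0 of 29 against 0.0518% of all genes. In an LXR element the 4 bases lie between longer half-sites (AGGTCA), so this search did not cover LXR elements. A repeat this rare was also likely to be absent from 29 genes, so the 0 carries no information about them. The windows that hold the core are shown because they belong to an early enzyme of the pathway, a later one and the factor that governs both. They are printed in the direction of transcription, from 5′ to 3′, end before the start site, and have the core in capitals.
Hmgcs1, chr13:119690168-119690267, plus strand: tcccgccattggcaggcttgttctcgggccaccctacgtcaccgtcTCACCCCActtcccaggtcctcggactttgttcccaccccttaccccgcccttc
Msmo1, chr8:64733702-64733801, minus strand: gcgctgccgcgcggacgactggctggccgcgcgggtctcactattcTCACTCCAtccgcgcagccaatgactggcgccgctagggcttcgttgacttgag
Srebf2, chr15:82147061-82147160, plus strand: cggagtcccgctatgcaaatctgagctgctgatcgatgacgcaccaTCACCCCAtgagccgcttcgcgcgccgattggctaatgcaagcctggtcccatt

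Windows of Plin2 and Abca1 are shown because both genes were higher in the IL hemispheres. Their motifs were chosen after the values were seen. The capitals mark CCAAT in Plin2 and CACGTG in Abca1. On either strand CCAAT stood in 24 of the 29 genes and in 41.1% of all genes, and CACGTG in 6 of 29 and in 8.09%. A match is a run of letters and was not tied to binding of any factor.
Plin2, chr4:86670079-86670178, minus strand: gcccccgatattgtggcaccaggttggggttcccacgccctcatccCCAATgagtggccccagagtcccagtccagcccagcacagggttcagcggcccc
Abca1, chr4:53159989-53160088, minus strand: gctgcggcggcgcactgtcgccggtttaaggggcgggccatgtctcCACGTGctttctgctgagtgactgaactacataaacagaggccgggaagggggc

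Values are CPM, reads of a gene per 1000000 reads assigned to genes, and the libraries held 12.2 to 41.6 M reads (M being 1000000). All 10 microglia/myeloid markers were above 1 CPM on average in each group, and so were 2 or 3 of the 8 T and NK cell markers and 2 to 4 of the 8 neuron markers, whose sums reached 17.9 and 25.8 CPM in a library. The T cell receptor genes Cd3d, Cd3e, Cd3g and Trac and the neuronal Rbfox3 were under 1 CPM, while Nkg7, Gzma and Syp were above it. The Ctrl IL library of mouse 3546 stood apart, with the fewest reads and with genes over 8000 exon bases above those under 2000 by 0.77 on the log2 scale relative to the mean of all libraries. The other libraries lay between -0.50 and 0.54. In cKO this measure separated the hemispheres, at 0.21 to 0.27 in the CL libraries and -0.19 to -0.11 in the IL libraries. Neutrophil markers summed to 7764 CPM in the Ctrl CL library of mouse 3541 and to 157 to 3565 CPM in the others. In bulk samples, fewer cells of a type and less RNA per cell cannot be told apart.

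**Figure D1:**
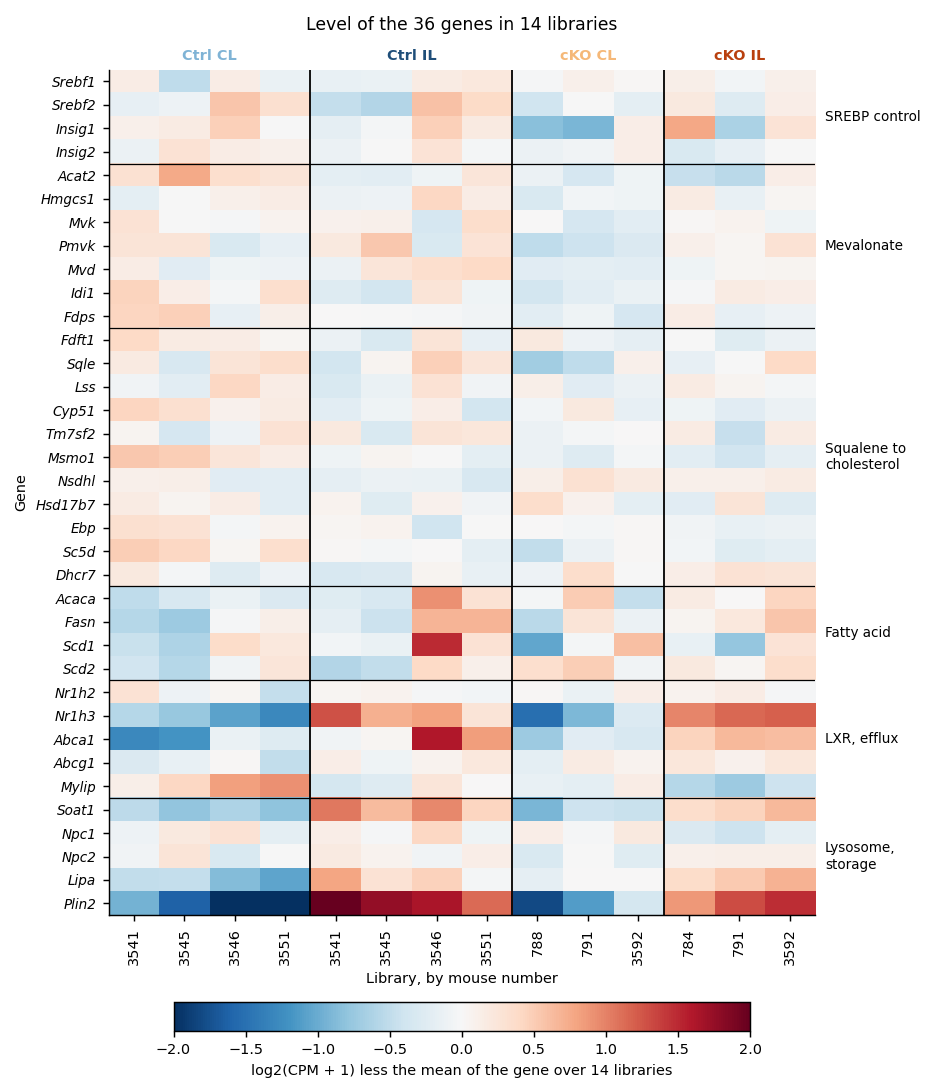
Level of each of the 36 genes (rows, by role) in each of the 14 libraries (columns, by group and mouse number), as log2(CPM + 1) less the mean of the gene over all libraries, with colours that stop at the ends of the scale. Plin2, Soat1 and Nr1h3 are below their mean in each CL library and above it in each IL library, and the rows of the 18 cholesterol synthesis enzymes carry weaker colours.

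The order of the levels differed between the hemispheres. Compared per kilobase of exon, the highest level in Ctrl CL was that of Npc2, which carries cholesterol inside the lysosome, at 83.4 ± 13.4 CPM per kb (mean ± SD, n = 4). Next was Mylip (Idol), a ubiquitin ligase that marks lipoprotein receptors for breakdown, at 74.3 ± 18.2 CPM per kb, and these neighbours did not differ beyond their spread. Plin2 was the third at 37.3 ± 17.2 CPM per kb, close to Nr1h2 at 31.1 ± 6.66 and Ebp at 29.4 ± 3.45 CPM per kb. In Ctrl IL, Plin2 led at 382 ± 102 CPM per kb, above Npc2 at 89.2 ± 6.71 and Lipa at 54.3 ± 13.0 CPM per kb. The lowest levels in Ctrl CL were those of Acaca, at 0.183 ± 0.0257 CPM per kb, and Scd1, at 0.384 ± 0.192 CPM per kb. Enzymes of cholesterol synthesis lay between Ebp and Lss, the latter at 0.791 ± 0.170 CPM per kb in Ctrl CL.

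In Ctrl, 5 of the 36 genes were higher in IL (Plin2, Soat1, Lipa, Nr1h3 and Abca1) and 1 was lower (Mylip). They are 3 of the 5 lysosome and storage genes, without Npc1 and Npc2, and 3 of the 5 LXR and efflux genes, without Nr1h2 and Abcg1, and none is among the 18 cholesterol synthesis enzymes. To be called, a gene needed a fold change of at least 1.2 and a Benjamini-Hochberg adjusted p of 0.05 or less in limma's moderated test, with adjustment over all genes that were tested. These 6 called genes are 16.7% of the 36, while 6.58% of 16376 tested genes were called, 3.63% higher and 2.96% lower. In cKO, 9 were called, the same 6 with Pmvk and Npc2 higher and Npc1 lower. They are 25% of the 36, while 22.4% of 16758 tested genes were called, 12.8% higher and 9.52% lower, so the share in cKO lay near that of all genes. The share of all genes moved when 1 library was left out. In Ctrl it was 2.86% to 3.71% without the CL library of mouse 3545 or 3546 or the IL library of mouse 3541, 3545 or 3551, and 4 of the 36 (11.1%) were called in each of these 5 fits. In cKO it was 14.3% without the CL library of mouse 788 and 10.9%, 11.1% and 13.8% without the IL library of mouse 784, 791 or 3592, where 6, 5, 6 and 6 of the 36 were called. When the fit held the mouse as a block, 8 of the 36 were called in Ctrl (22.2%, against 20.5% of all genes) and 5 in cKO (13.9%, against 13.5%, from the 2 cKO mice that gave both hemispheres). These shares too lay near those of all genes. A random effect for the mouse, fitted to all 14 libraries, gave 9 calls in Ctrl (25%, against 27.4% of all genes) and 7 in cKO (19.4%, against 19.6%). The median log2 difference of the 36 was 0.09 in Ctrl and 0.24 in cKO, beside -0.04 and 0.02 over all genes. Without scaling beyond the deposited CPM, 4 of the 36 were called in Ctrl, all of them higher, and with upper-quartile scaling 5, all higher. The calls over all genes were then 625 higher and 814 lower in Ctrl, against 594 and 484 with the main scaling, and 1647 higher and 2146 lower in cKO, against 2150 and 1596. With upper-quartile scaling they were 734 higher and 409 lower in Ctrl and 1912 higher and 1919 lower in cKO. The balance of higher and lower calls thus moved with the scaling.

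**Figure D2:**
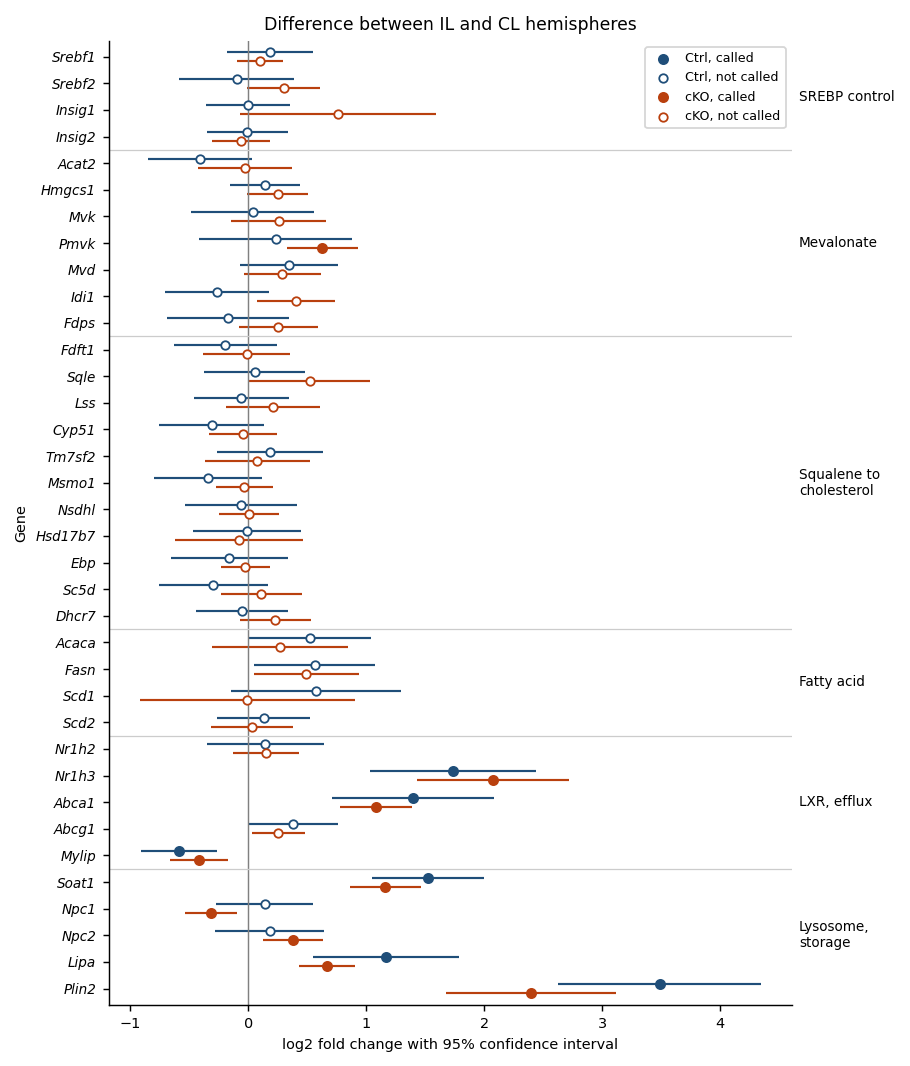
Difference between IL and CL (log2 fold change, x axis) of the 36 genes (y axis, by role) in Ctrl (4 and 4 libraries, blue) and cKO (3 and 3 libraries, red), with bars for the 95% confidence interval and filled points for called genes. The intervals of Plin2, Soat1, Lipa, Nr1h3 and Abca1 lie to the right of 0 in both genotypes, and that of Mylip to the left.

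Plin2, the coat protein of lipid droplets (chr4:86648386-86670060, minus strand, GRCm38), had the largest difference among the 36 in both genotypes. It was at 215, 134, 79.4 and 95.6 CPM in Ctrl CL and at 1778, 1399.6, 1281 and 909 CPM in Ctrl IL, each in the order of mice 3541, 3545, 3546 and 3551. The lowest IL library was thus far above the highest CL library. The log2 fold change was 3.49 ± 0.39 (SE), an 11.2-fold difference (adjusted p = 0.001). In cKO, Plin2 was at 117, 189 and 323 CPM in CL (mice 788, 791 and 3592) and 752, 1024 and 1149 CPM in IL (mice 784, 791 and 3592). These groups did not overlap either, and the log2 fold change was 2.40 ± 0.31 (adjusted p = 0.0029). Within the 6 mice that gave both hemispheres, Plin2 was higher in IL in each, by 1.86 to 4.02 in log2 of the scaled CPM. The lists of mice just given hold, in this order, for the other genes too.

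Soat1, which makes cholesterol esters for storage (chr1:156424525-156474331, minus strand), was at 103, 85.5, 96.6 and 84.7 CPM in Ctrl CL and 312, 231, 290.0 and 199.9 CPM in Ctrl IL. The log2 fold change was 1.52 ± 0.21 (adjusted p = 0.0029). The cKO libraries stood at 78.2, 111 and 109 CPM in CL and 189, 204 and 234 CPM in IL, a log2 fold change of 1.16 ± 0.13 (adjusted p = 0.0019). All IL libraries lay above all CL libraries in both genotypes. Plin2, Soat1 and Nr1h3 stayed called in each of the 18 alternative fits in Ctrl and the 15 in cKO.

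Lipa, the acid lipase that frees cholesterol from its esters in the lysosome (chr19:34492318-34527474, minus strand), was at 198, 199, 152 and 133 CPM in Ctrl CL and 480.2, 339, 384 and 269 CPM in Ctrl IL. The groups did not overlap, with a log2 fold change of 1.17 ± 0.28 (adjusted p = 0.036). This call was lost without the CL library of mouse 3546 (adjusted p = 0.092) or 3551 (0.064), or without the IL library of mouse 3541 (0.10) or 3545 (0.095). Without both libraries of mouse 3546, the log2 fold change was 1.11 (adjusted p = 0.068), and with the mouse as a block the adjusted p was 0.0008. In cKO, Lipa was at 246, 280.0 and 278 CPM in CL and 359, 399 and 452 CPM in IL, a log2 fold change of 0.67 ± 0.10 (adjusted p = 0.0047). It was higher in IL in each of the 6 mice with both hemispheres.

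The transporters that take freed cholesterol out of the lysosome gave smaller differences. Npc2 was at 437, 548, 372 and 456 CPM in Ctrl CL and 521, 481, 436 and 503 CPM in Ctrl IL, which overlap (log2 fold change 0.18 ± 0.21, adjusted p = 0.71). Its cKO values were 371, 455 and 389 CPM in CL and 489, 497 and 498 CPM in IL, a log2 fold change of 0.38 ± 0.11 (adjusted p = 0.043). Npc1, the membrane partner that receives cholesterol from NPC2, was at 76.8 to 109 CPM in Ctrl CL and 83.1 to 118 CPM in Ctrl IL, which overlap, with a log2 fold change of 0.14 ± 0.19 (adjusted p = 0.76). Its cKO values were 97.4, 86.8 and 101 CPM in CL and 72.5, 65.9 and 76.9 CPM in IL (log2 fold change -0.32 ± 0.10, adjusted p = 0.046). Neither call held once the mouse was a block (adjusted p = 0.15 for Npc2 and 0.18 for Npc1) or a random effect (0.073 and 0.13). That of Npc2 was also lost with the deposited CPM unscaled (adjusted p = 0.068) and with upper-quartile scaling (0.070), and both were lost without the filter on low values (0.092 each). Both calls were also lost when any library but the CL library of mouse 791 was left out, with adjusted p values of 0.061 to 0.14 for Npc2 and 0.10 to 0.13 for Npc1.

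Of the LXR receptors, Nr1h3 (LXR alpha, chr2:91184061-91202834, minus strand) rose in IL and Nr1h2 (LXR beta) did not pass the test. Nr1h3 was at 3.22, 2.71, 1.98 and 1.56 CPM in Ctrl CL and 14.1, 9.22, 9.90 and 6.49 CPM in Ctrl IL. Its log2 fold change was 1.73 ± 0.31 (adjusted p = 0.011), on the log2(CPM + 1) scale, which understates the change of a gene this low. The cKO libraries stood at 1.19, 2.37 and 4.18 CPM in CL and 11.4, 12.8 and 13.4 CPM in IL, a log2 fold change of 2.08 ± 0.28 (adjusted p = 0.0032). No IL library overlapped a CL library in either genotype. Nr1h2 was the more abundant receptor, at 76.8 to 130.3 CPM in Ctrl CL and 103 to 113 CPM in Ctrl IL, and its log2 fold changes of 0.14 ± 0.22 in Ctrl and 0.15 ± 0.12 in cKO had 95% confidence intervals of -0.35 to 0.64 and -0.13 to 0.43.

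Abca1, the exporter that loads cholesterol onto apolipoprotein acceptors (chr4:53030787-53159895, minus strand), was at 89.1, 95.1, 198 and 183 CPM in Ctrl CL and 209, 225, 664 and 391 CPM in Ctrl IL. The groups did not overlap, although the IL libraries of mice 3541 and 3545 lay only just above the CL libraries of mice 3546 and 3551. The log2 fold change was 1.39 ± 0.31 (adjusted p = 0.027). The highest value belongs to the Ctrl IL library of mouse 3546, in which long transcripts stood high, and the exons of Abca1 cover 10363 bases. Without both libraries of this mouse, Abca1 stayed called, with a log2 fold change of 1.28 (adjusted p = 0.013). The call was lost without the CL library of mouse 3541 (adjusted p = 0.065) or 3545 (0.089) or the IL library of mouse 3551 (0.082), and with the deposited CPM unscaled (0.076). Within mice, Abca1 was higher in IL by 0.97 to 1.77 on the log2 scale in all 6, and with the mouse as a block the adjusted p in Ctrl was 0.00039. Its cKO values were 132, 187 and 174 CPM in CL and 299, 343 and 335 CPM in IL, a log2 fold change of 1.08 ± 0.13 (adjusted p = 0.0026).

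Abcg1, which exports cholesterol to mature lipoprotein particles, was at 81.1, 89.6, 100.3 and 70.4 CPM in Ctrl CL and 109, 93.3, 104 and 115 CPM in Ctrl IL. Its log2 fold change was 0.38 ± 0.17 (adjusted p = 0.24) in Ctrl and 0.25 ± 0.10 (adjusted p = 0.10) in cKO, and it passed only in Ctrl with the mouse as a random effect (adjusted p = 0.017). Mylip (chr13:45389742-45412022, plus strand), another LXR target gene, went the other way. It was at 172, 212, 279.8 and 297 CPM in Ctrl CL and 123, 131, 186 and 159 CPM in Ctrl IL, so that the groups overlapped in CPM, though not once scaled as in the fit (184 to 260.3 and 146 to 167), and each of the 6 mice with both hemispheres had the lower value in IL. The log2 fold change was -0.59 ± 0.14 (adjusted p = 0.04) in Ctrl and -0.42 ± 0.11 (adjusted p = 0.028) in cKO, where it was at 142, 137 and 176 CPM in CL and 106, 94.7 and 118 CPM in IL. In Ctrl the call was lost on leaving out the CL library of mouse 3545, 3546 or 3551 or the IL library of mouse 3541, 3545 or 3551, with adjusted p values of 0.092 to 0.11. In cKO it was lost on leaving out any library but the CL library of mouse 791 (adjusted p = 0.057 to 0.099). Under the mouse block, the adjusted p was 0.0067 in Ctrl and 0.059 in cKO. With upper-quartile scaling in Ctrl it was 0.091, and with the deposited CPM unscaled 0.076.

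**Figure D3:**
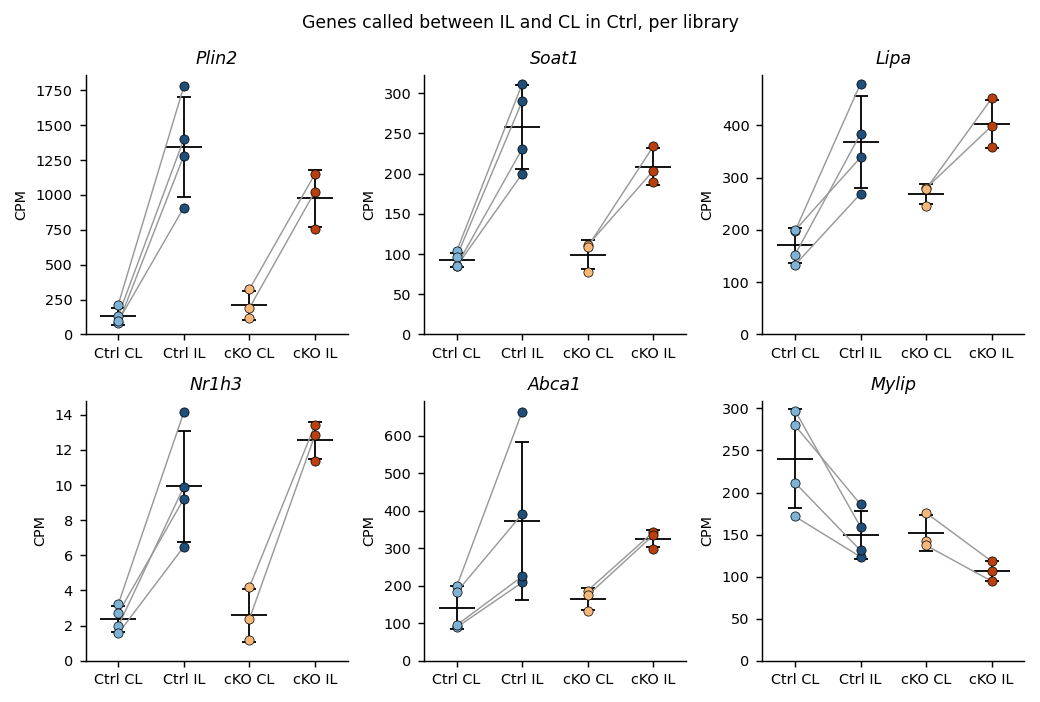
CPM (y axis) of the 6 genes that passed in Ctrl (IL against CL), in each library of the 4 groups (x axis). Points are libraries, grey lines join the hemispheres of 1 mouse, and black lines are the mean and SD of 3 or 4 libraries. Plin2 lies at 79.4 to 215 CPM in Ctrl CL and at 909 to 1778 CPM in Ctrl IL, and Mylip is lower in IL along each grey line.

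Markers of other cells moved with these changes. The 8 monocyte markers summed to 119.6 to 699.7 CPM in Ctrl CL and 569 to 884 CPM in Ctrl IL. In cKO they summed to 113 to 312 CPM in CL and 563 to 775 CPM in IL. Of the 8, 4 were called higher in IL in Ctrl and 5 in cKO. Fn1 was the largest part of the Ctrl IL sum, with means of 27.4 CPM in CL and 457 CPM in IL. The Ctrl means of Ccr2, Vcan, Itga4 and Ms4a4c were also higher in IL. Those of Ly6c2 (30.4 and 11.6 CPM) and Chil3 (236 and 104 CPM) were lower, and Plac8 was at 12.8 and 13.1 CPM. In cKO only Chil3 had the lower mean in IL (73.7 and 62.2 CPM). The 10 microglia/myeloid markers summed to 33525 to 38263 CPM in Ctrl CL and 19426 to 23959 CPM in Ctrl IL, and 5 of 10 were called lower in each genotype. The 11 dissociation genes summed to 29944 to 39346 CPM in Ctrl CL and 21778 to 24824 CPM in Ctrl IL. Their sums in cKO were 34076 to 47088 CPM in CL and 22623 to 26475 CPM in IL, and of the 11 none was called in Ctrl and 4 were called lower in cKO. The 8 neutrophil markers summed to 544 to 7764 CPM in Ctrl CL and 157 to 979 CPM in Ctrl IL, where none was called, and to 583 to 1638 CPM in cKO CL and 231 to 358 CPM in cKO IL, where 6 of 8 were called lower. Without the Ctrl CL library of mouse 3541, the highest in these markers, Plin2, Soat1, Nr1h3, Lipa and Mylip stayed called and Abca1 did not. The 8 T and NK cell markers summed to 8.46 to 17.9 CPM in Ctrl CL and 3.93 to 5.43 CPM in Ctrl IL, with all 3 of those tested called lower, and to 5.11 to 9.50 CPM in cKO CL and 3.80 to 12.5 CPM in cKO IL, with none called. The 6 B cell markers summed to 550.2 to 833 CPM in Ctrl CL and 322 to 349.8 CPM in Ctrl IL, and to 657 to 756 CPM in cKO CL and 320.5 to 489 CPM in cKO IL, with 1 called lower in each genotype. The 8 astrocyte markers summed to 212 to 232 CPM in Ctrl CL and 125 to 179 CPM in Ctrl IL. In cKO they summed to 185 to 219 CPM in CL and 136 to 195 CPM in IL. Of the 8, 1 was called higher in each genotype, and 1 was called lower in Ctrl and 2 in cKO. Slc1a3 was the largest part of the sum, with means of 173.6 CPM in Ctrl CL and 73.5 CPM in Ctrl IL. Gfap was at 9.42 and 33.9 CPM. The Ctrl means of Gja1, Aldh1l1, Aqp4 and Slc4a4 were also higher in IL, and those of Slc1a2 and Aldoc lower. In cKO, 2 of 8 endothelial and 2 of 7 oligodendrocyte markers tested were called higher in IL, where they summed to 121 to 169 and 206 to 248 CPM, against 89.1 to 158 and 177 to 217 CPM in CL. In Ctrl none of them was called, nor was any neuron marker in either genotype. None of these markers was at 0 in all libraries. Their part in the differences of Plin2, Soat1, Lipa, Nr1h3, Abca1 and Mylip was not tested.

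The 18 enzymes of cholesterol synthesis gave 1 call between the hemispheres in either genotype, that of Pmvk in cKO. These are 0 of 18 in Ctrl, against 6.58% of all genes, and 1 of 18 in cKO (5.56%, against 22.4%). With the mouse as a block they were 1 of 18 in Ctrl (5.56%, against 20.5%) and 0 in cKO (against 13.5%). In Ctrl none of the 18 was called in limma's test, none had an unadjusted p under 0.05, and their log2 differences ran from -0.41 to 0.34 with a median of -0.06. In cKO 1 was called, 3 had an unadjusted p under 0.05, and the differences ran from -0.08 to 0.63 with a median of 0.16. The 95% confidence intervals reached no further than -0.85 and 0.88 in Ctrl and -0.63 and 1.03 in cKO. The CPM of the 18 enzymes summed to 428, 410.5, 356 and 376 in the Ctrl CL and 325, 337, 359 and 343 in the Ctrl IL libraries. In cKO the sums were 320.3, 341 and 334 in CL and 346, 327 and 354 in IL. The sums of the Ctrl CL libraries reached higher than those of the other groups, which overlapped each other. Scaled as in each fit, the sums of Ctrl CL (320.3 to 461) and Ctrl IL (317 to 385) still overlapped, while those of cKO IL (340.1 to 359) lay above those of cKO CL (317 to 326).

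Among the enzymes from acetyl-CoA to farnesyl diphosphate, Pmvk, a kinase of the mevalonate steps, was the 1 called. It was at 8.08, 8.77 and 9.64 CPM in cKO CL and 12.9, 12.4 and 14.9 CPM in cKO IL, which did not overlap (log2 fold change 0.63 ± 0.13, adjusted p = 0.012). In Ctrl it was at 14.5, 14.5, 9.53 and 10.6 CPM in CL and 13.9, 17.9, 9.49 and 14.7 CPM in IL, which overlap (log2 fold change 0.23 ± 0.29, adjusted p = 0.74). The call in cKO was lost without the IL library of mouse 784 (adjusted p = 0.051) and with the mouse as a block (0.085). Long transcripts stood lower in the cKO IL than in the cKO CL libraries. The exons of Pmvk cover 1713 bases and those of Npc1, called lower in cKO IL, 11317. Abca1 and Soat1, at 10363 and 9791 bases, were called higher there. The part of transcript length in these cKO calls was not tested. Hmgcs1, which makes the substrate of the rate-limiting reductase, was at 30.2 to 38.8 CPM in Ctrl CL and 32.2 to 46.7 CPM in Ctrl IL, with a log2 fold change of 0.14 ± 0.13 (adjusted p = 0.62). Acat2, the thiolase of the opening step, was at 21.99 to 31.3 CPM in Ctrl CL and 15.5 to 21.6 CPM in Ctrl IL, a log2 fold change of -0.41 ± 0.20 that missed the threshold (adjusted p = 0.27). These groups did not overlap in CPM but did once scaled (19.3 to 33.3 and 15.4 to 19.98). For Mvk, Mvd, Idi1 and Fdps, which complete this stretch, the log2 differences in Ctrl were 0.04, 0.34, -0.27 and -0.17, with adjusted p values of 0.34 to 0.96.

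From squalene to cholesterol, none of 11 enzymes was called by limma between the hemispheres, with 0 at an unadjusted p under 0.05 in Ctrl and 1 in cKO. Msmo1, a methyl sterol oxidase, was at 52.5, 50.6, 42.3 and 39.9 CPM in Ctrl CL and 33.6, 37.3, 35.6 and 31.0 CPM in Ctrl IL. These groups did not overlap in CPM but did once scaled (34.97 to 56.4 and 28.6 to 41.9), the log2 fold change was -0.34 ± 0.20 (adjusted p = 0.39), and with the mouse as a block Msmo1 passed (adjusted p = 0.04). In cKO its log2 fold change was -0.04 ± 0.11 (adjusted p = 0.84). Sc5d, a sterol desaturase, was at 19.5 to 27.2 CPM in Ctrl CL and 16.5 to 19.3 CPM in Ctrl IL, with a log2 fold change of -0.30 ± 0.21 (adjusted p = 0.48). Sqle, the epoxidase that is a control point of the pathway, was at 7.67 to 12.9 CPM in Ctrl CL and 7.45 to 14.1 CPM in Ctrl IL. Its log2 fold change was 0.05 ± 0.19 in Ctrl and 0.52 ± 0.22 in cKO (adjusted p = 0.93 and 0.13), and in cKO it passed without the CL library of mouse 3592 (log2 fold change 0.75, adjusted p = 0.023). Ebp, the sterol isomerase and the most abundant of the 18 per length, was at 58.9 to 75.5 CPM in Ctrl CL and 45.8 to 63.4 CPM in Ctrl IL, with a log2 fold change of -0.16 ± 0.22. Dhcr7, the reductase that ends a branch of the pathway, was at 35.3 to 48.8 and 33.7 to 44.1 CPM in these groups (log2 fold change -0.06 ± 0.18). For Fdft1, Lss, Cyp51, Tm7sf2, Nsdhl and Hsd17b7, the remaining enzymes of this stretch, the log2 differences in Ctrl were -0.20, -0.06, -0.31, 0.18, -0.06 and -0.01.

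**Figure D4:**
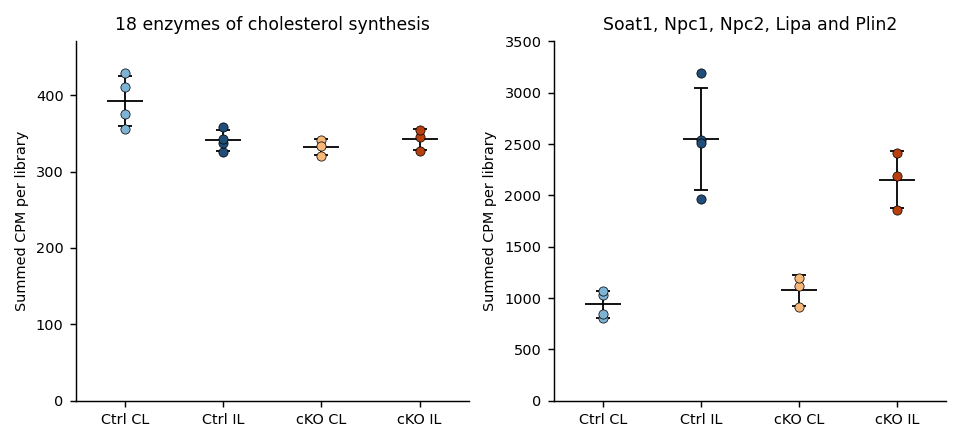
Summed CPM per library (y axis) of the 18 cholesterol synthesis enzymes (left) and of Soat1, Npc1, Npc2, Lipa and Plin2 (right) in the 4 groups (x axis). Points are libraries and black lines the mean and SD. The enzymes sum to 320.3 to 428 CPM over all libraries. The lysosome and storage genes sum to 809 to 1068 CPM in Ctrl CL and 909 to 1200.3 CPM in cKO CL, and to 1964 to 3188 CPM in Ctrl IL and 1863 to 2409.8 CPM in cKO IL.

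None of the 4 genes of SREBP control passed limma's test between hemispheres, and none had an unadjusted p under 0.05 in either genotype. Srebf2 was at 26.9, 28.3, 45.1 and 38.0 CPM in Ctrl CL and 21.6, 19.97, 46.3 and 40.0 CPM in Ctrl IL (log2 fold change -0.10 ± 0.22, adjusted p = 0.88). Mice 3546 and 3551 had the higher values in both hemispheres. Srebf1, whose SREBP1 product favours fatty acid synthesis, was at 47.9 to 75.8 CPM in Ctrl CL and 61.3 to 78.8 CPM in Ctrl IL (log2 fold change 0.18 ± 0.16, adjusted p = 0.61). Insig1, itself an SREBP target, was at 18.5, 17.6 and 37.4 CPM in cKO CL and 58.9, 21.5 and 41.3 CPM in cKO IL, with a log2 fold change of 0.76 ± 0.36 (adjusted p = 0.17). The cKO groups overlap, and without the CL library of mouse 3592 it passed (log2 fold change 1.09, adjusted p = 0.037). In Ctrl the 95% confidence intervals of the log2 fold change were -0.36 to 0.35 for Insig1 and -0.35 to 0.34 for its paralogue Insig2.

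Of the 4 enzymes of fatty acid synthesis, none was called by limma without the block, and 1 had an unadjusted p under 0.05 in each genotype. Fasn, the fatty acid synthase, was at 13.9, 12.4, 20.7 and 23.0 CPM in Ctrl CL and 18.6, 15.4, 34.5 and 34.5 CPM in Ctrl IL. The groups overlap, but within each mouse the IL library was the higher, and the log2 fold change of 0.56 ± 0.23 passed with the mouse as a block (adjusted p = 0.015, against 0.20 without). In cKO it was 0.49 ± 0.19 (adjusted p = 0.11), and it passed without the CL library of mouse 791 (log2 fold change 0.69, adjusted p = 0.035). Acaca, the carboxylase ahead of it, was at 2.59, 3.11, 3.66 and 3.16 CPM in Ctrl CL and 3.30, 3.07, 8.62 and 5.25 CPM in Ctrl IL (log2 fold change 0.52 ± 0.23, adjusted p = 0.24). The exons of Fasn cover 10947 bases and those of Acaca 17074. Acaca had its highest value in the Ctrl IL library of mouse 3546, where long transcripts stood high. For Fasn this library was level with the Ctrl IL library of mouse 3551, at 34.5 CPM each, where long genes lay at -0.15 against short ones. The desaturases differed in level, with Scd2 at 109 to 192 CPM and Scd1 at 0.953 to 2.86 CPM in Ctrl CL. Their log2 fold changes in Ctrl were 0.13 ± 0.18 and 0.57 ± 0.32 (adjusted p = 0.76 and 0.36).

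Between genotypes, none of the 36 genes was called in either hemisphere in limma's test. In the IL hemispheres 3 had an unadjusted p under 0.05, and the smallest adjusted p was 0.136, while 0.662% of 16919 genes were called. In the CL hemispheres 7 had an unadjusted p under 0.05, and the smallest adjusted p was 0.148, while 0.873% of 16603 genes were called. The cKO and Ctrl libraries did not overlap for 4 of the 36 in IL (11.1%, against 10.3% of all genes) and for 6 of the 36 in CL (16.7%, against 9.99%), in CPM as deposited. After division by the scaling factors of the fit these were 4 of 36 in IL (against 10% of all genes) and 7 of 36 in CL (19.4%, against 9.23%), and the genes in CL were partly others. The median log2 differences of the 36 were -0.02 in IL and -0.14 in CL, beside 0.01 and -0.05 over all genes.

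Mylip had the smallest adjusted p in both hemispheres. In CL it was at 172, 212, 279.8 and 297 CPM in Ctrl and 142, 137 and 176 CPM in cKO, so that the lowest Ctrl library lay among the cKO libraries, though not once scaled (192 to 266 in Ctrl and 135 to 171 in cKO). The log2 fold change was -0.64 ± 0.17 (adjusted p = 0.15). It passed with all 14 libraries in a single fit (adjusted p = 0.024) and with the mouse as a random effect (log2 fold change -0.63, adjusted p = 0.016, when 1.75% of all genes passed). In IL each cKO library (106, 94.7 and 118 CPM) lay below each Ctrl library (123, 131, 186 and 159 CPM), with a log2 fold change of -0.46 ± 0.10 (adjusted p = 0.14). The 8 neutrophil markers summed to 544 to 7764 CPM in Ctrl CL and 583 to 1638 CPM in cKO CL, and none of the 8 was called between genotypes. Leaving out the Ctrl CL library of mouse 3541 gave Mylip a log2 fold change of -0.74 in CL (adjusted p = 0.086).

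The remaining genes whose libraries did not overlap between genotypes went both ways, and in IL they did not overlap in deposited or in scaled CPM. In IL, Dhcr7 was at 46.3, 51.7 and 51.1 CPM in cKO and 33.7, 34.4, 44.1 and 38.1 CPM in Ctrl (log2 fold change 0.41 ± 0.11, adjusted p = 0.20). Npc1 was at 72.5, 65.9 and 76.9 CPM in cKO IL and 97.6, 86.8, 118 and 83.1 CPM in Ctrl IL (log2 fold change -0.40 ± 0.13, adjusted p = 0.35). Nsdhl, a sterol dehydrogenase, was at 18.4 to 19.2 CPM in cKO IL against 13.5 to 15.7 CPM in Ctrl IL. In CL it was at 18.7 to 21.3 CPM in cKO against 14.4 to 18.6 CPM in Ctrl, and these groups overlapped once scaled (19.0 to 20.8 and 13.2 to 20.6). Its log2 differences were 0.32 ± 0.15 in IL and 0.25 ± 0.22 in CL, and both missed the threshold (adjusted p = 0.61 and 0.75). In CL, Lipa was at 246, 280.0 and 278 CPM in cKO and 198, 199, 152 and 133 CPM in Ctrl (log2 fold change 0.66 ± 0.22, adjusted p = 0.32). In CPM, Acat2, Idi1, Msmo1 and Sc5d lay lower in each cKO CL library than in each Ctrl CL library, with log2 differences of -0.60 ± 0.22, -0.47 ± 0.22, -0.50 ± 0.20 and -0.52 ± 0.22 and adjusted p values of 0.35 to 0.53. Once scaled, Sc5d overlapped (13.8 to 18.8 in cKO and 17.99 to 30.5 in Ctrl), while Acat2, Idi1, Msmo1 and Lipa did not, nor did Srebf2 (23.8 to 29.6 and 30.2 to 41.5) and Hmgcs1 (28.9 to 33.1 and 33.9 to 37.9).

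In the CL hemispheres the 18 synthesis enzymes had a median log2 difference of -0.25 between cKO and Ctrl, with 15 negative and 3 positive, none of them called and 3 with an unadjusted p under 0.05. Their summed level was 332 ± 10.5 CPM (SD, n = 3) in cKO CL and 393 ± 32.8 CPM (n = 4) in Ctrl CL. Each cKO sum (320.3 to 341 CPM) lay below each Ctrl sum (356 to 428 CPM) in deposited CPM only. Scaled as in the fit, the sums were 325 to 334 in cKO CL and 328 to 479.99 in Ctrl CL, which overlap. The 8 oligodendrocyte markers summed to 177 to 217 CPM in cKO CL and 222 to 315 CPM in Ctrl CL, without overlap in CPM or once scaled, with a median log2 difference of -0.68 over the 7 tested and 1 called lower. The 8 endothelial markers summed to 89.1 to 158 CPM in cKO CL and 115 to 273 CPM in Ctrl CL, with a median log2 difference of -0.72 and none called. The 8 neutrophil markers had a median log2 difference of -1.33 (583 to 1638 CPM in cKO CL and 544 to 7764 CPM in Ctrl CL), and the 3 T and NK cell markers tested one of -0.81 (summed over all 8, 5.11 to 9.50 and 8.46 to 17.9 CPM), with none called in either list. The medians of the other lists ran from -0.23 (monocyte) to 0.29 (neuron). The part of these cells in the enzyme levels was not tested. In the IL hemispheres the sums were 342 ± 13.5 CPM in cKO and 341 ± 13.9 CPM in Ctrl, the median log2 difference was -0.02, and 1 had an unadjusted p under 0.05. Of the SREBP genes, Insig1 was at 18.5, 17.6 and 37.4 CPM in cKO CL and 36.3, 38.2, 47.8 and 33.7 CPM in Ctrl CL (log2 fold change -0.73 ± 0.25, adjusted p = 0.33), and the cKO CL library of mouse 3592 lay among the Ctrl libraries. The storage genes did not pass either. Plin2 differed by -0.43 ± 0.28 in IL and 0.65 ± 0.41 in CL on the log2 scale, with 95% confidence intervals of -1.08 to 0.22 and -0.25 to 1.54, and Soat1 by -0.27 ± 0.19 and 0.08 ± 0.18. Both intervals of Plin2 include 0.

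**Figure D5:**
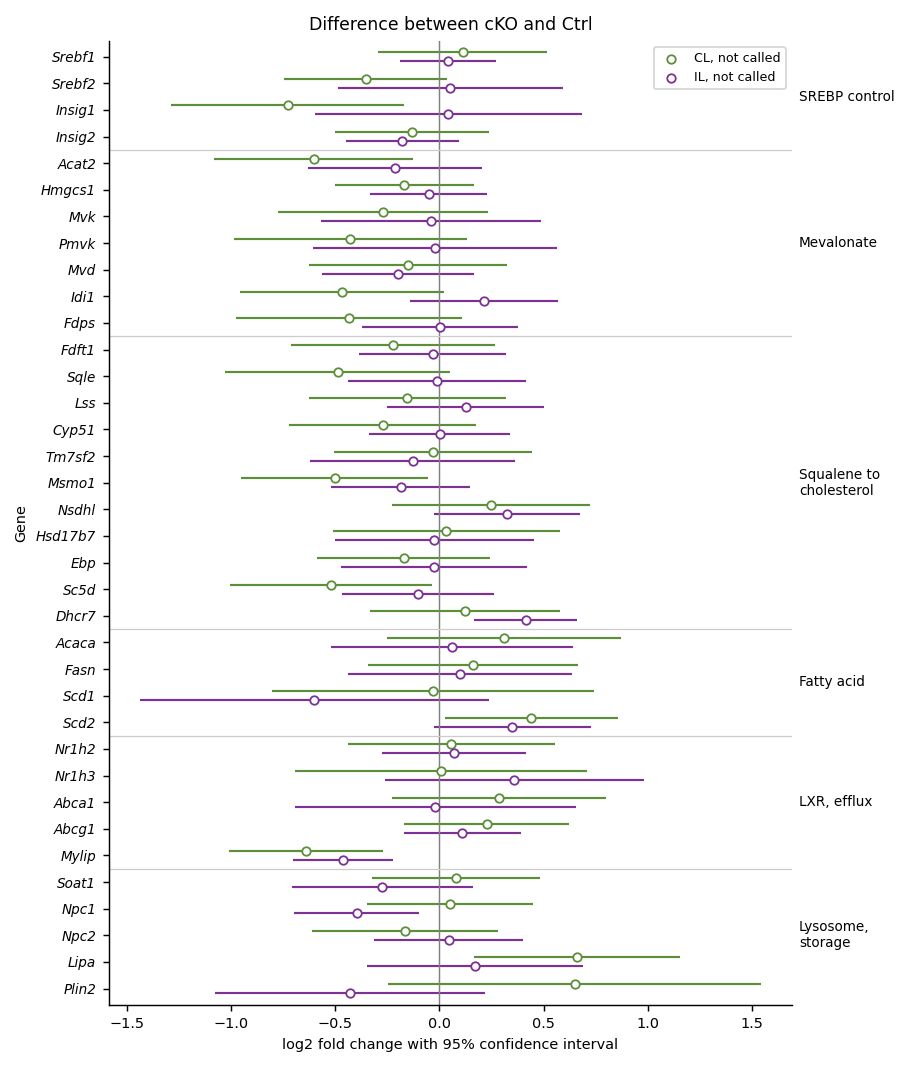
Difference between cKO and Ctrl (log2 fold change, x axis) of the 36 genes (y axis, by role) in CL (3 against 4 libraries, green) and IL (3 against 4 libraries, purple), with bars for the 95% confidence interval. No gene was called, and the interval of Mylip lies to the left of 0 in both hemispheres.

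Whether the injury response differed with genotype was tested as an interaction over all 14 libraries. None of the 36 genes was called in limma's test, and 0% of 18476 genes were, with 1 of the 36 and 481 of all genes at an unadjusted p under 0.05. That 1 gene was Idi1, the isomerase that makes dimethylallyl diphosphate, with an interaction of 0.68 ± 0.25 on the log2 scale (unadjusted p = 0.018). For Plin2 the rise in IL was 3.49 in Ctrl and 2.40 in cKO on the log2 scale, and the interaction was -1.08 ± 0.57 with a 95% confidence interval of -2.30 to 0.14. For Soat1, Lipa and Abca1 it was -0.36 ± 0.27, -0.49 ± 0.34 and -0.31 ± 0.41. The calls of Pmvk, Npc1 and Npc2 in cKO alone are therefore not shown to differ from Ctrl, with interactions of 0.40 ± 0.37, -0.45 ± 0.22 and 0.20 ± 0.26.

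Further genes of these pathways were counted from lists of related genes, of which 45 of 46 were in the table and 44 were tested. In IL against CL of Ctrl, 8 of the 44 were called (18.2%, against 6.58% of all genes), all higher, and 16 in the fit with the block for mouse (36.4%, against 20.5%). In cKO, 8 were higher and 3 lower (25%, against 22.4%), and 8 were called with the block (18.2%, against 13.5%), so that the cKO shares lay near those of all genes. Examples follow from lipid uptake and storage. Msr1, a scavenger receptor for modified lipoproteins, was at 28.9 to 43.3 CPM in Ctrl CL and 341 to 592 CPM in Ctrl IL (log2 fold change 3.78 ± 0.27, adjusted p = 0.00016). Cd36, a receptor for fatty acids and oxidised lipoproteins, was at 21.4 to 30.9 CPM in Ctrl CL and 75.7 to 155 CPM in Ctrl IL (log2 fold change 2.23 ± 0.28). Nceh1, a hydrolase that frees stored cholesterol from its esters, was at 26.8 to 30.2 CPM in Ctrl CL and 110.0 to 149.6 CPM in Ctrl IL (log2 fold change 2.21 ± 0.18). Hilpda, a droplet protein that inhibits triglyceride lipase, was at 9.04 to 19.4 CPM in Ctrl CL and 47.1 to 168 CPM in Ctrl IL (log2 fold change 2.96 ± 0.48). These 4 genes and Plin3, another droplet coat protein (log2 fold change 1.27 ± 0.22), were called in cKO too, with log2 fold changes of 3.54, 1.75, 1.28, 2.55 and 1.12, and they stayed called when any 1 library was left out. Me1, which supplies NADPH for fatty acid synthesis, was called in Ctrl (log2 fold change 1.11 ± 0.24, adjusted p = 0.023) but not without the CL library of mouse 3541, 3545 or 3546 or the IL library of mouse 3541 or 3545 (adjusted p = 0.057 to 0.071). Apoe, the most abundant of the related genes, was called higher in Ctrl, at 3108 to 5531 CPM in CL and 9616 to 21370 CPM in IL. Its call was lost without the CL library of mouse 3545, 3546 or 3551 or the IL library of mouse 3541 or 3545 (adjusted p = 0.061 to 0.095). Of 9 further sterol synthesis and uptake genes, none was called in Ctrl, with 1 at an unadjusted p under 0.05. In cKO and not in Ctrl, the calls took in Scarb1, a lipoprotein receptor, and Abhd5, the activator of triglyceride lipase (log2 fold changes 0.51 ± 0.15 and 0.35 ± 0.10), and, as lower, Ggps1, which makes the isoprenoid for protein prenylation, and Fads1, a fatty acid desaturase (-0.36 ± 0.09 and -0.52 ± 0.14). Cyp27a1, an oxysterol enzyme given with its values beside Ch25h, was the other. Each of the first 4 calls was lost when any 1 IL library was left out (adjusted p = 0.067 to 0.14). Those of Scarb1 and Abhd5 were lost with the deposited CPM unscaled (adjusted p = 0.063 and 0.12) and with upper-quartile scaling (0.066 and 0.061). With the mouse as a block, Abhd5, Ggps1 and Fads1 did not pass in cKO (adjusted p = 0.22, 0.16 and 0.091), and Scarb1 and Ggps1 passed in Ctrl (0.027 and 0.026). None of the 5 was called in the interaction.

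Of the 44 related genes, 1 was called between genotypes in IL (Ch25h) and 1 in CL (Stard4), beside 0.662% and 0.873% of all genes. Ch25h, which makes 25-hydroxycholesterol, was at 37.4, 32.1, 10.7 and 35.8 CPM in Ctrl CL and 135, 131, 130.01 and 192 CPM in Ctrl IL (log2 fold change 2.50 ± 0.38, adjusted p = 0.0045). The cKO libraries stood at 57.4, 114 and 40.2 CPM in CL and 412, 396 and 349.6 CPM in IL (log2 fold change 2.65 ± 0.32, adjusted p = 0.0024). Each cKO IL library lay above each Ctrl IL library, and Ch25h was called between genotypes in IL (log2 fold change 1.41 ± 0.17, adjusted p = 0.0098), though not with the mouse as a random effect (adjusted p = 0.15), nor without the cKO IL library of mouse 784 (0.078) or 791 (0.079). Cyp27a1, which makes a further oxysterol, differed between hemispheres in cKO and was at 45.9 to 65.4 CPM in cKO CL and 19.7 to 27.3 CPM in cKO IL (log2 fold change -1.10 ± 0.15, adjusted p = 0.0032). In Ctrl it was at 45.5 to 77.2 CPM in CL and 24.9 to 51.3 CPM in IL (log2 fold change -0.76 ± 0.22, adjusted p = 0.072, and 0.0032 with the mouse as a block). Stard4, a cytosolic sterol carrier and SREBP target, was at 5.41, 6.22, 8.47 and 7.28 CPM in Ctrl CL and 1.19, 1.201 and 2.87 CPM in cKO CL, without overlap (log2 fold change -1.56 ± 0.25, adjusted p = 0.014). The call was lost without the Ctrl CL library of mouse 3545 (adjusted p = 0.057) or the cKO CL library of mouse 788 (0.10) or 791 (0.11). In IL it was at 3.93, 6.94, 11.2 and 8.16 CPM in Ctrl and 2.66, 2.25 and 2.77 CPM in cKO, with a log2 fold change of -1.18 ± 0.24 that did not pass (adjusted p = 0.11) but did with the mouse as a random effect (0.025). Nceh1 did not pass between genotypes in CL (log2 fold change 0.81 ± 0.17, adjusted p = 0.059) but did with the random effect (0.013).

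Reads of some of these genes could not be assigned with certainty. The library kit does not keep strand, and transcripts of opposite strands cannot be told apart. Fdft1 shares 774 exon bases on the opposite strand with Ctsb, at 9378 CPM on average, so its values are uncertain. Tm7sf2 shares 532 exon bases with Vps51, Npc1 511 with Rmc1 and Cyp51 166 with Akap9. Acat2 has a stretch of 445 bases that is 98.7% identical to Tcp1, which at 156 CPM lay above Acat2 itself, so the values of Acat2 are uncertain too. Near-identical copies exist for Acat2 (Acat3, 97.7% identical over 1477 bases), Acaca (Gm5182, 99.2% over 6118 bases), Fdps (Gm3571, 98.9% over 1062 bases), Idi1 (Gm13502, 100% over 684 bases) and Scd2 (Scd1, 95.5% over 623 bases). Of the 6 genes called in Ctrl, Plin2 matched a copy over 259 bases (Gm12551, at 0.119 CPM) and Nr1h3 shared 34 exon bases with Gm13783 (at 0.0199 CPM).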

How the data were processed

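The authors isolated CD11b+ cells with magnetic beads from CL and IL hemispheres at 3 days post-TBI, made Smart Seq v4 libraries, mapped reads with STAR to mm10 and worked in Partek Flow 8.0. STAR's version and the counting step are not given in the sources used here. The table the authors deposited as raw counts sums to 1000000 in each library, so its values are CPM. In each library 79.0% to 83.5% of values under 100 reads were whole multiples, within 0.03, of the commonest value above 0, which was taken as 1 read and gave 12.2 to 41.6 M reads. As this falls short of nearly all values, count tests, which the design had foreseen for raw counts, were not used. The authors' tables of their own genotype comparisons hold p-values, FDR, ratios and fold changes and were not used.

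CPM were divided by factors from the trimmed mean of M-values (unweighted, 30% of M and 5% of A trimmed) and tested as log2(CPM + 1) with limma 3.58.1 (R 4.3.3, trend) on the libraries compared. Levels are given as deposited CPM, and whether libraries of the groups overlap was read in CPM and, where said, in CPM scaled by these factors. Genes needed the CPM of 10 reads at median depth in as many libraries as the smaller group and 15 reads in total, which all 36 reached. Adjustment was by Benjamini-Hochberg across the genes of each fit. Python 3.11.15 did the rest. The method was tested on simulated data. Groups came from the labels, and the level of the deleted gene is not reported here. Whether animals 784 and 788 are different mice is taken from their numbers.

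The members, lists and tests were chosen with earlier results of these data known. Each member may be named with its values, related genes where called in a comparison, and markers as lists, with single markers only beside a result. Further marker lists (T and NK, B, oligodendrocyte, astrocyte, neuron and endothelial cells) summed to at most 833 CPM in a library. Libraries with the same number come from the same mouse. Samples of a group are different mice, so p-values between genotypes within a hemisphere measure the spread between mice. The main IL against CL fits and the interaction fit took the 2 libraries of a mouse as independent. Their p-values therefore leave out the pairing within mice. In the 6 mice with both hemispheres, the residuals of the 2 libraries correlated across genes at 0.18 to 0.61, against -0.54 to 0.50 in 19 pairs of different mice. The study's methods name no pairing, so the block is an alternative. Other alternatives were scaling, pseudocounts of 0.5 and 0.1, filters, a single fit of 14 libraries and leaving out each library. Omitting both libraries of mouse 3546 was chosen after seeing the data.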

Additional observations from a re-analysis of the deposited data

Results flagged for a closer look

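In the Ctrl groups of 4 libraries, 72 sets of values (36 genes in CL and in IL) were checked for a single library far from the rest, and 3 were found. Chance alone gives such a gap in about 5% of sets. Acat2 was at 31.3 CPM in the Ctrl CL library of mouse 3545 and at 21.99 to 23.2 CPM in the other 3. Tm7sf2 was at 3.76 CPM in the Ctrl IL library of mouse 3545 and at 5.67 to 6.01 CPM in the other 3. Scd1 was at 7.45 CPM in the Ctrl IL library of mouse 3546, which had the fewest reads and the highest level of long transcripts, and at 1.74 to 2.69 CPM in the other 3. Leaving out these libraries in turn brought no call for Acat2, Tm7sf2 or Scd1 in the comparisons that hold those libraries.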

How the results depend on the processing

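Of the 36 genes, 6 were called between IL and CL in Ctrl, and 3 to 9 over the alternatives. Without a filter on low values 3 remained (Plin2, Soat1 and Nr1h3), and leaving out a library left 4 to 6. In cKO 9 were called, 4 with all 14 libraries in a single fit (Plin2, Soat1, Nr1h3 and Abca1), 5 with the mouse as a fixed block, and 5 to 10 on leaving out a library, where 5 were left without the IL library of mouse 784. Between genotypes in CL, 0 were called and 1 (Mylip) with all 14 libraries in a single fit or with the replicate block by mouse as a random effect. In IL and for the interaction, 0 were called under each alternative, the replicate block included. Among 357 single-gene values under alternatives, 294 kept their direction and side of the threshold, 53 lost the call, 10 gained it and none changed sign. For the 36 genes, the block changed no call other than those given beside the results. All 36 genes passed the filter on low values in each comparison. With 3 or 4 libraries a group, small differences could not be resolved.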
